A study of Mus musculus with 4 samples.

Results

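The genes described here are 10 matrix glycoprotein genes of the mouse, Smoc1, Smoc2, Sparc, Sparcl1, Fbln1, Fbln2, Fbln5, Dcn, Lum and Bgn. They were picked by symbol from the annotation of the array, with earlier results of these data known. Each had 1 probe, and all 10 probes had values on all 4 arrays, among 12264 probes that did. Gonads were taken at 12 days post coitum, when testis and ovary begin to differ, and were cut away from the mesonephroi beside them. XY Wnt4+/+ gonads were compared with XX Wnt4+/+ gonads on 2 two-colour arrays of spotted oligonucleotides, and XX Wnt4-/- gonads, homozygous for a null allele of the secreted ovarian signal Wnt4, were compared with XX Wnt4+/+ gonads on 2 more. In each comparison the dyes Cy3 and Cy5 were exchanged between replicate 1 and replicate 2. Material from over 100 embryos per genotype was pooled in several groups before RNA was isolated. Whether replicate 1 and replicate 2 carried different pools is not stated, so the spread between arrays may be technical and p-values measure that spread alone. The test estimated it for each probe from all 4 arrays together, then drew it toward a value shared by all probes. A p-value therefore does not rest on the gap between the 2 arrays of its own comparison alone. The strain is not given in the labels. By its title, the study sought genes of the vascular development that is particular to the testis.

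Matrix glycoproteins are secreted proteins that sit between collagen, basement membrane and cells. Sparc, its relative Sparcl1 and the Smoc proteins are matricellular calcium-binding proteins: they bind collagen, growth factors or cell surfaces rather than building fibres. Fibulins are chains of calcium-binding EGF-like modules that link basement membranes and elastic fibres, and Dcn (decorin), Lum (lumican) and Bgn (biglycan) are small leucine-rich proteoglycans that bind collagen fibrils and TGF-beta family ligands. In fetal organs mesenchymal cells and cells around vessels are well known sources of several of them.

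Values are log2 ratios to XX wild type, with the median of each array at 0, so that 1 stands for a doubling; errors are SD with n = 2 arrays. They are differences and not levels: no spot brightness was analysed, so how abundant each RNA was is unknown. In whole gonads, fewer cells of a type and less RNA per cell cannot be told apart.

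The direction of the ratios is likely but not settled, because no label names the numerator and because the 2 replicate 1 arrays, both with the sample in Cy5, had a correlation across probes of r = -0.62 in the values as deposited. XY replicate 1 was turned: as deposited the Y-linked gene Eif2s3y stood at -2.22 on it and at 2.25 on XY replicate 2, and Xist, transcribed from the inactive X, at 1.67 and -1.22. A second Eif2s3y probe read -0.64 and -0.46 and does not separate the arrays. With XY replicate 1 turned, 6 of 6 testis supporting cell markers, counted below, were above 0 on both XY arrays. Of 6 measured ovarian supporting cell markers 5 were below 0 on both, and Lgr5 had opposite signs. Both marker lists were chosen with earlier results of these data known, so these counts are not an independent check of the turn. On the Wnt4 null arrays, where both channels are labelled XX, the first Eif2s3y probe read 1.53 and 0.18 and Xist -0.48 and 0.45 as deposited, so a ratio of Eif2s3y away from 0 was also seen without an XY channel. After turning, the replicate 1 arrays correlated at 0.62 and the replicate 2 arrays at 0.68 across probes, whereas the 2 arrays of a comparison correlated at 0.0561 in XY and at -0.46 in Wnt4 null. Turning Wnt4 null replicate 1 as well would put the replicate 1 arrays back at -0.62. Of all probes, 56.2% had opposite signs on the XY arrays and 68.2% on the Wnt4 null arrays. Wnt4 itself read -0.081 and -0.18 on the Wnt4 null arrays, and since the place of its probe relative to the deleted part is not known, this checks nothing. Probes were named after rows and columns within each printed block had been exchanged. In that order 2 probes of the same gene had a rank correlation of 0.31 in XY over 499 pairs, against -0.0067 over 467 pairs in the deposited order, and of 0.13 against 0.0086 in Wnt4 null. Each of the 10 genes has 1 probe, so none has such a check of its own.

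In XY gonads the highest ratios among the 10 genes were those of Smoc2, Fbln2, Sparc and Bgn, whose means were 8.28-fold, 4.52-fold, 2.13-fold and 1.69-fold above XX wild type. Limma without a term for the dye, the test chosen as the main one, called 0 of the 12264 probes at an adjusted p under 0.05 (686 at an unadjusted p under 0.05, which is 5.59%, among them these 4 genes). With the dye term, an alternative, it called these 4 of the 10 higher, against 1.36% of all probes, and none of the 10 lower, against 1.33%, or 2.69% in either direction. Before adjustment 7 of the 10 were under 0.05 in that fit, against 18.6% of all probes. These calls rest on the direction given to the Wnt4 null arrays, which share the dye term: with all columns read as Cy3 over Cy5 the XY ratios were the same and 0 of the 12264 probes were called. Leaving out either of the Wnt4 null arrays gives the same fit for XY, because the spread then comes from the 2 XY arrays alone. No dye term can be fitted in it, and the XY mean of Smoc2 stayed at 3.05. Smoc2, Fbln2 and Sparc were at least 1.5-fold higher on both arrays, a size that 1.37% of all probes reached upward and 1.32% downward; none of the 10 reached it downward. Above 0 on both arrays were 7 of the 10 genes, against 21.8% of all probes, and below 0 on both was Smoc1, against 21.9%. The median over the 10 genes was 0.33, beside 0.0027 over all probes. Because the 10 genes were chosen with earlier results of these data known, shares here and below describe them. They do not test the 10 as a set.

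Smoc2, a secreted modular calcium-binding protein, read 3.07 on XY replicate 1 and 3.03 on replicate 2. Both arrays were far above 0 and 0.049 apart, against a median gap of 0.30 between the XY arrays over all probes. Its mean of 3.05 ± 0.035 (SD, n = 2) ranked as the third highest of 12264 probes (limma adjusted p = 0.0221 with the dye term and 0.24 without). Its paralogue Smoc1, a BMP antagonist in frogs and a gene of eye and limb development in mice, went the other way, at -0.15 and -0.54. The mean of -0.34 ± 0.28 did not pass (limma adjusted p = 0.174 with the dye term), so the arrays placed Smoc1 low without a call. Sparc, the collagen-binding glycoprotein also known as osteonectin, read 1.05 and 1.14, a narrow range clear of 0. Its mean was 1.09 ± 0.058 (limma adjusted p = 0.0217 with the dye term and 0.252 without). Sparcl1, or hevin, the closest relative of Sparc, read 0.049 and -0.37, on either side of 0, with a mean of -0.16 ± 0.29 (limma adjusted p = 0.48 with the dye term).

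Among the fibulins, Fbln2, which binds fibronectin and basement membrane proteins, read 1.88 and 2.48. Both arrays lay above all values of the other fibulins, and the mean was 2.18 ± 0.42 (limma adjusted p = 0.0129 with the dye term and 0.185 without). Fbln5, which is needed to assemble elastic fibres in mice, read 0.40 and 0.27 and averaged 0.34 ± 0.097. It was slightly above 0 on both arrays but did not pass (limma adjusted p = 0.171 with the dye term). Fbln1, an early matrix fibulin, read -0.18 and 0.45, so its arrays differed in sign (0.13 ± 0.44, limma adjusted p = 0.672 with the dye term).

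Among the leucine-rich proteoglycans, Bgn, an X-linked gene, read 0.50 and 1.02. Both arrays were above 0, and only replicate 2 was past 1.5-fold. The mean was 0.76 ± 0.37 (limma adjusted p = 0.0399 with the dye term and 0.792 without). Dcn, which binds collagen and TGF-beta, read 0.31 and 0.33, which is 0.021 apart, and averaged 0.32 ± 0.015; it did not pass (limma adjusted p = 0.198 with the dye term). Lum read 0.048 and 0.27 and averaged 0.16 ± 0.15 (limma adjusted p = 0.492 with the dye term). In the order of means, the arrays of Smoc2, Fbln2, Sparc and Bgn each lay clear of those of the next gene. Below them the arrays of Fbln5 overlapped with those of Dcn, those of Fbln1 with Lum and Sparcl1, and those of Sparcl1 with Smoc1, so these neighbours did not differ beyond the spread of their arrays.

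**Figure D1:**
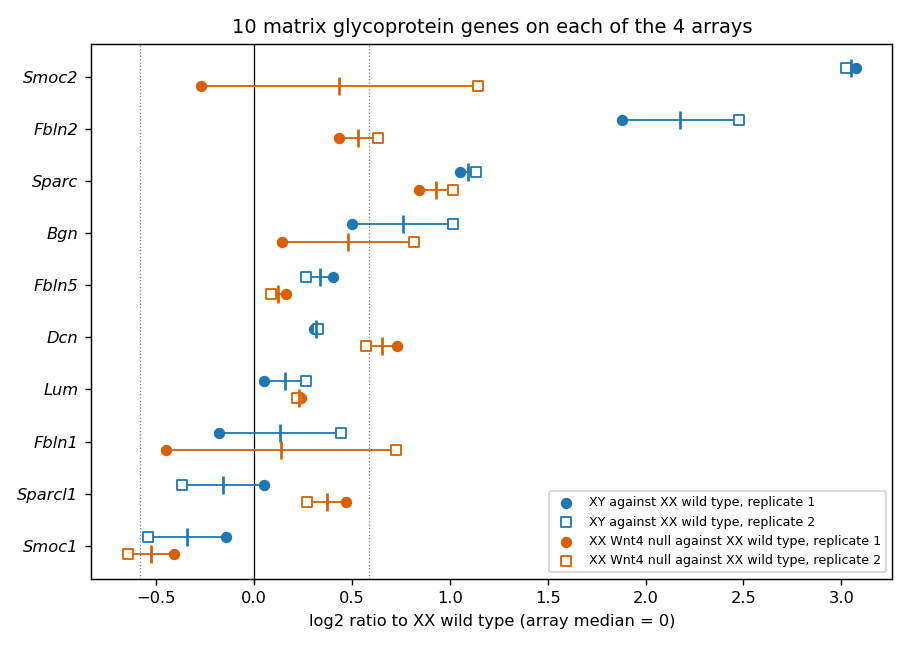
Log2 ratio to XX wild type (x axis) of each of the 10 genes (y axis), with a filled circle for replicate 1, an open square for replicate 2, a tick for the mean, a line joining the arrays, and dotted lines at 1.5-fold. Smoc2, Fbln2 and Sparc lie past 1.5-fold on both XY arrays (blue), and Sparc alone does so on both Wnt4 null arrays (orange).

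Of the 4 genes called in XY with the dye term, those with a promoter at hand are shown by the bases before their start sites. RefSeq promoters (GRCm38.p6) were found for 5 of the 10 genes, among them Fbln2, Sparc and Bgn; Smoc2, Smoc1, Sparcl1, Dcn and Lum had none in the table. Printed 5′ to 3′ are the 250 bases before the start of Fbln2 (chr6:91212514-91212763, plus strand), Sparc (chr11:55420081-55420330, minus strand) and Bgn (chrX:73483351-73483600, plus strand), with matches to a searched motif in capitals.
Fbln2: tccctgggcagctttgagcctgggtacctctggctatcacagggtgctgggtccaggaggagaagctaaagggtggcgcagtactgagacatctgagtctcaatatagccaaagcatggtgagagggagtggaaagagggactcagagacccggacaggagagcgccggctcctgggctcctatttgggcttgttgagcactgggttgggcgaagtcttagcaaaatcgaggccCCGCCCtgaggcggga
Sparc: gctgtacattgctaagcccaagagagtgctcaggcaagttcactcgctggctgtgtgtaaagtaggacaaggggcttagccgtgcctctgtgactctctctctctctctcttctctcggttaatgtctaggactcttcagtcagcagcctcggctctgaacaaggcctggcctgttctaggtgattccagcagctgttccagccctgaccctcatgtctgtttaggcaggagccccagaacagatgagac
Bgn: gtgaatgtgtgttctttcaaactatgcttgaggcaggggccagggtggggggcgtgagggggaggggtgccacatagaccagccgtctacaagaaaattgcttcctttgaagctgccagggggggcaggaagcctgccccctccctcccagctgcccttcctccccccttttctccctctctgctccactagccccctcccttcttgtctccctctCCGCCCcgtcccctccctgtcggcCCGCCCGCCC
The motifs were searched on both strands: TATAAA (the TATA box), GGGCGG (the GC box), GATAA (bound by GATA factors), ACAAAG (bound by SOX and by TCF/LEF factors) and AGGTCA (a nuclear receptor site). Capitals mark the GC box in each case, written CCGCCC on the strand shown. It begins 16 bases before the start in Fbln2 and 34, 10 and 6 bases before it in Bgn, the last 2 overlapping. No motif matched in the Sparc window. A GC box stands in 32.7% of the 32851 promoters of the table at this length, a TATA box in 12.4%, GATAA in 22.6%, ACAAAG in 16.5% and AGGTCA in 14%. A match is a run of letters and not a bound site, and the share of G and C was 58.8% in Fbln2, 54% in Sparc and 64.4% in Bgn, beside a median of 52.4% over the table.

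In XX Wnt4 null gonads the same genes stood mostly above 0, but limma called 0 of the 10 in either fit. Of all 12264 probes the fit with the dye term called 0.196%, which is 0.13% higher and 0.0652% lower, and the fit without it 0 (354 at an unadjusted p under 0.05, which is 2.89%, among them Dcn, Smoc1 and Sparc). Before adjustment 6 of the 10 were under 0.05 in the fit with the dye term, against 12% of all probes. Above 0 on both arrays were 7 genes, against 15.7% of all probes, and below 0 on both was again Smoc1, against 16.2%. Past 1.5-fold on both arrays was Sparc alone, against 0.554% of all probes upward and 0.497% downward. The median over the 10 genes was 0.40, beside 0.0020 over all probes; it was 0.60 without replicate 1 and 0.20 without replicate 2. These values depend on the direction of Wnt4 null replicate 1, which is less sure than that of the XY arrays. With that array turned as well, which reads every column as Cy3 over Cy5, the median over the 10 genes was 0.038. As read here, 6 of 6 measured ovarian supporting cell markers were below 0 on both Wnt4 null arrays. Among them were Fst at -3.02 and -2.21 and Irx3 at -2.67 and -2.70. With Wnt4 null replicate 1 turned, each of the 6 would have opposite signs. The 6 were listed with earlier results of these data known.

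Sparc read 0.84 and 1.02 on the Wnt4 null arrays, close together and clear of 0. Its mean of 0.93 ± 0.12, or 1.9-fold, stood 49th from the top of 12264 probes (limma adjusted p = 0.0709 with the dye term). Read as Cy3 over Cy5, its arrays would have opposite signs and a mean of 0.086. With the dye term and arrays centred by printed block or scaled to a common spread, settings added after the data were seen, Sparc was called (limma adjusted p = 0.0221 and 0.0234). Sparcl1 read 0.47 and 0.27, above 0 on both arrays, with a mean of 0.37 ± 0.14 (limma adjusted p = 0.288 with the dye term).

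Smoc2 read -0.27 and 1.14, so its arrays lay on either side of 0 and 1.42 apart. This was the widest gap among the 10 genes in either comparison, and the mean of 0.44 ± 1 did not pass (limma adjusted p = 0.601 with the dye term). Smoc1 read -0.41 and -0.65, the lowest of the 10 on replicate 2 and second to Fbln1 on replicate 1. Its mean was -0.53 ± 0.17 (limma adjusted p = 0.177 with the dye term).

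Fbln2 read 0.43 and 0.63 and averaged 0.53 ± 0.14, above 0 on both arrays and short of 1.5-fold on replicate 1; with the dye term it did not pass (limma adjusted p = 0.225). Fbln5 read 0.16 and 0.085 and averaged 0.12 ± 0.053. Fbln1 read -0.45 and 0.72, again with opposite signs, and averaged 0.14 ± 0.83. Neither Fbln5 nor Fbln1 passed (limma adjusted p = 0.683 and 0.765 with the dye term).

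Dcn read 0.73 and 0.57, so that it stood higher on each Wnt4 null array than on either XY array. Its mean of 0.65 ± 0.11 was 1.57-fold and did not pass (limma adjusted p = 0.125 with the dye term). Bgn read 0.14 and 0.82, above 0 on both arrays but 0.68 apart, and averaged 0.48 ± 0.48 (limma adjusted p = 0.205 with the dye term). Lum read 0.24 and 0.22 and averaged 0.23 ± 0.014, the narrowest range among the 10 here, and did not pass (limma adjusted p = 0.473 with the dye term). On all 4 arrays 6 genes were above 0 (Bgn, Dcn, Fbln2, Fbln5, Lum and Sparc), against 7.49% of all probes, and Smoc1 was below 0, against 7.61%. Both comparisons are against XX wild type, so these are not taken as independent.

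**Figure D2:**
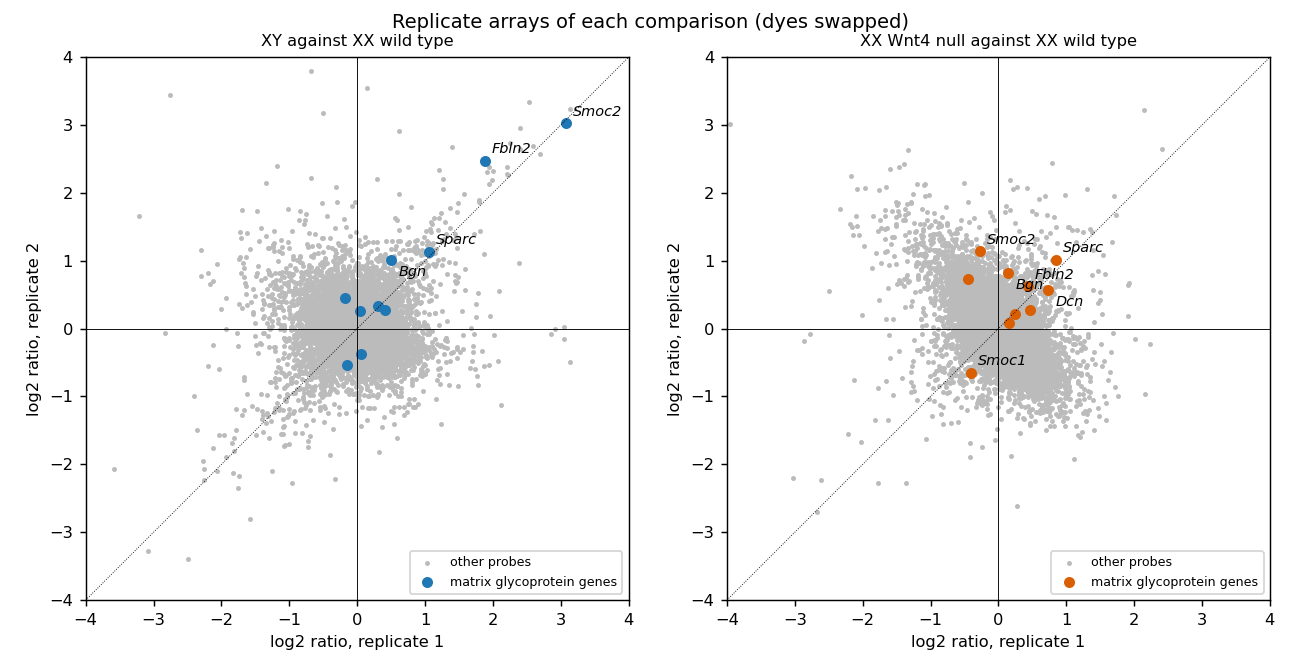
Log2 ratio on replicate 1 (x axis) against replicate 2 (y axis) for XY (left) and Wnt4 null (right), with all probes in grey, the 10 genes in colour and a dotted line of equality; 3 grey probes lie beyond the axes on the left. Smoc2, Fbln2 and Sparc lie along the line in XY, while the grey cloud slopes downward in Wnt4 null (r = -0.46) and Smoc2 lies within it.

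The XX wild type reference is labelled female wild-type on the XY arrays and female Wnt4 +/+ on the Wnt4 null arrays. Whether both carried the same RNA is not stated. The difference between XY and Wnt4 null was tested through this reference, taken as the same. It was largest for Smoc2, at 2.61 in favour of XY (limma SE 0.52, unadjusted p = 0.00653, adjusted p = 1), and for Fbln2, at 1.64 (SE 0.29, unadjusted p = 0.00392, adjusted p = 1). Both were higher in XY on replicate 1, by 3.35 and 1.44, and on replicate 2, by 1.88 and 1.84. With the dye term neither passed (limma adjusted p = 0.284 for Smoc2 and 0.209 for Fbln2), and in this contrast limma called 0 of the 12264 probes in both fits (at an unadjusted p under 0.05, 1098 or 8.95% with the dye term and 197 or 1.61% without). With the dye term and arrays scaled to a common spread, a setting added after the data were seen, Smoc2 and Fbln2 were both among 68 probes called, which is 0.554%. Sparc differed by 0.16 and Bgn by 0.28 in favour of XY, with SE 0.20 and 0.35. Dcn and Sparcl1 leaned toward Wnt4 null, by -0.33 and -0.53 as XY minus Wnt4 null, with SE 0.20 and 0.25. None of these 4 passed (limma adjusted p = 1 for each, and 0.778, 0.65, 0.592 and 0.457 with the dye term).

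The gap between replicate 1 and replicate 2, in which a dye effect would show, ran in the same direction in both comparisons for 7 of the 10 genes and for 81.5% of all probes. It was -0.63 and -1.18 for Fbln1 and -0.52 and -0.68 for Bgn, with replicate 2 higher each time. For Smoc2 it was 0.049 and -1.42, so that the replicates lay apart in Wnt4 null and not in XY. The dye term shared by the 4 arrays removes the part of the gap that both comparisons have in common, and the median standard error was 0.185 without it and 0.0986 with it. It leaves means as they are and leaves 1 residual degree of freedom in place of 2.

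Genes nearest to these in pattern were found by Euclidean distance over the 4 log2 ratios among 10441 other named probes. The nearest to Smoc2 were Ptgds, a prostaglandin D synthase (distance 1.09), Tmem184a (1.30) and Tesc, a calcium-binding protein gene (1.34). Their XY means were 2.94, 2.65 and 2.52, and their Wnt4 null means 0.71, 0.64 and 0.37, with no Wnt4 null array below 0, unlike Smoc2. The nearest to Fbln2 were Pak3, a protein kinase gene (0.333), Gstm1, a glutathione transferase gene (0.39), and Tesc (0.637). Pak3 had means of 2.11 and 0.41 in XY and Wnt4 null, and Gstm1 2.08 and 0.63. The nearest to Sparc were Lsp1 (0.295), Tagln2, a transgelin gene (0.358), and Fabp3, a fatty acid binding protein gene (0.365). Their means lay between 1.01 and 1.07 in XY and between 0.72 and 0.90 in Wnt4 null. Ptgds and Tesc are also among the testis supporting cell markers counted below. Distances over 4 arrays describe likeness of values only.

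Related genes were counted in 5 lists. Of 7 genes listed as SPARC family or follistatin-like 3 were measured (Fstl1, Spock1 and Fstl3, the last a follistatin-type activin-binding protein), with means from -0.039 to 0.11 in XY and from 0.024 to 0.19 in Wnt4 null and 0 called by limma in either comparison and either fit. Of 5 fibulins and fibulin-like genes Fbln7 and Efemp1 were measured, at 0.38 and 0.59 in XY and 0.079 and 0.27 in Wnt4 null, and 0 were called. Efemp1 had opposite signs on the XY arrays, at 1.31 and -0.14. Of 13 other small leucine-rich proteoglycans 4 were measured (Fmod, Ogn, Kera and Optc), with medians of 0.16 and 0.047 and 0 called. All 4 had opposite signs on the Wnt4 null arrays, against 68.2% of all probes. None of the 9 genes in these 3 lists was past 1.5-fold on both XY arrays, a size that 1.37% of all probes reached upward and 1.32% downward.

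Of 17 elastic fibre and microfibril genes 15 were measured. On both XY arrays 8 were above 0, against 21.8% of all probes, and 3 below, against 21.9%, and limma with the dye term called 3 higher, against 1.36% of all probes, and 0 lower. The called genes were Mfap4, a microfibril-associated glycoprotein, at 0.75 and 1.49 (1.12 ± 0.53), Emilin1, an elastic fibre glycoprotein, at 0.90 and 1.13 (1.02 ± 0.16), and Ltbp4, which binds latent TGF-beta, at 0.72 and 0.88 (0.80 ± 0.11). Their limma adjusted p with the dye term was 0.0223, 0.0327 and 0.0352, and without it 0.678, 0.405 and 0.358. Loxl2, a lysyl oxidase relative that cross-links matrix, read 0.92 and 0.37 and did not pass (limma adjusted p = 0.07 with the dye term). The list median was 0.21. In Wnt4 null 10 of the 15 were above 0 on both arrays, against 15.7% of all probes, and 1 below, against 16.2%, with a median of 0.26 and 0 called by limma in either fit. Mfap4 read 0.72 and 1.67, Loxl1 0.37 and 1.29, Emilin1 0.47 and 1.10, and Lox, the founding lysyl oxidase gene, 0.42 and 0.88. Replicate 2 was the higher array for each of these 4.

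Of 35 other matrix glycoprotein and proteoglycan genes 24 were measured. In XY 5 were above 0 on both arrays, against 21.8% of all probes, and 7 below, against 21.9%. The median was 0.055. Limma with the dye term called Ccn2, Ccn4 and 1 of the 2 probes of Vcan higher, against 1.36% of all probes. It called 0 lower, against 1.33%. Ccn4, a matricellular Wnt target, read 0.76 and 0.88 (limma adjusted p = 0.0466 with the dye term), and Ccn2, or connective tissue growth factor, 0.12 and 1.25 (0.0448). The probes of Vcan, the gene of the proteoglycan versican, disagreed: the called one read 0.56 and 1.18 (limma adjusted p = 0.0318 with the dye term), and the other 0.023 and -0.0088 (0.983). Ccn4 was the one past 1.5-fold on both arrays, against 1.37% of all probes upward and 1.32% downward. In Wnt4 null 6 were above 0 on both arrays, against 15.7% of all probes, and 0 below, against 16.2%. Opposite signs were seen in 18, against 68.2% of all probes. The median was 0.076, and 0 were called in either fit. Tnc, the gene of tenascin C, read 0.42 and 2.07 and Ccn4 0.64 and 1.13.

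**Figure D3:**
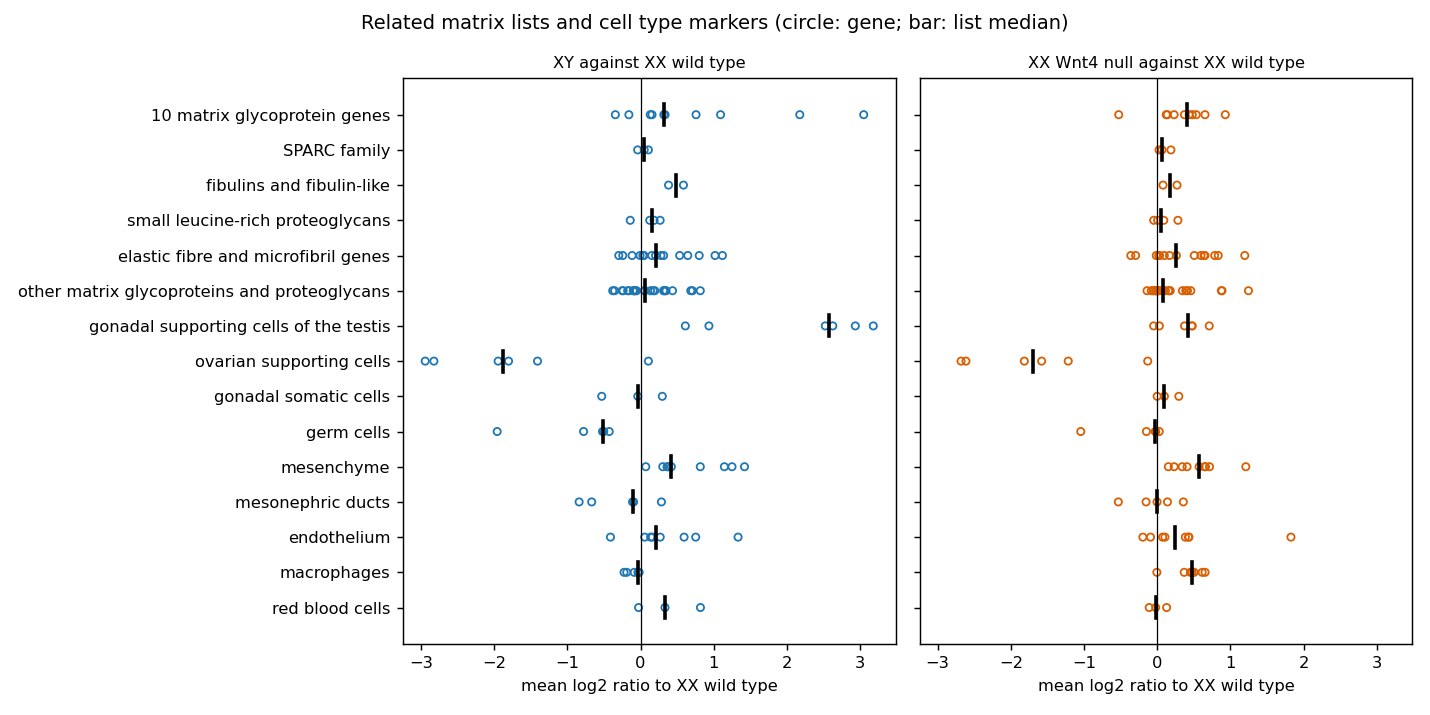
Mean log2 ratio to XX wild type (x axis) of each measured gene (circles) in the 10 genes, the 5 related lists and 9 lists of cell type markers (y axis), for XY (left) and Wnt4 null (right), with list medians as bars. The medians of the 10 genes are 0.33 and 0.40; those of the marker lists run from -1.87 to 2.58 in XY and from -1.70 to 0.57 in Wnt4 null.

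Markers of cell types that the dissected gonad could hold were measured beside these genes. Of all probes 21.8% were above 0 and 21.9% below on both XY arrays, and 15.7% and 16.2% on both Wnt4 null arrays. Calls in this paragraph are those of limma with the dye term. That fit called 1.36% of all probes higher and 1.33% lower in XY, and 0.13% and 0.0652% in Wnt4 null. The fit without the dye term called 0. Of 9 mesenchyme markers 8 were above 0 and 0 below on both XY arrays, with means from 0.072 to 1.42, and limma with the dye term called Tcf21, Pdgfra, Gli1 and Ptch1 higher. In Wnt4 null 7 of the 9 were above 0 on both arrays and 0 below, from 0.15 to 1.21, with 0 called. Nr2f2, counted as above 0 in both comparisons, entered as the mean of 2 probes that disagreed. The first read 0.091 and 0.49 in XY and 0.30 and 0.99 in Wnt4 null. The second had opposite signs, at 1.02 and -0.075 in XY and at 1.51 and -0.22 in Wnt4 null. Of 6 testis supporting cell markers 6 were above 0 on both XY arrays, with a median of 2.58 and 5 called higher with the dye term; in Wnt4 null 3 were, with a median of 0.42 and 0 called. Of 6 measured ovarian supporting cell markers 5 were below 0 on both XY arrays (median -1.87, 5 called lower with the dye term) and 6 on both Wnt4 null arrays (median -1.70, 2 called lower with the dye term). Of 8 endothelial markers 5 were above 0 and 1 below on both XY arrays (median 0.22), and 4 and 1 on the Wnt4 null arrays (median 0.24). Thbd was called higher in each with the dye term and in neither without it. Macrophage markers had medians of -0.033 in XY and 0.48 in Wnt4 null, where 5 of 7 were above 0 on both arrays. Germ cell markers were below 0 on both XY arrays in 5 of 5 (median -0.52) and in 2 of 5 in Wnt4 null (-0.029), with Dazl and Stra8 called lower in XY with the dye term and 0 called in Wnt4 null. Markers of the mesonephric ducts, the neighbouring tissue, had medians of -0.11 and -0.0037. On both arrays 0 of 5 were above 0 in either comparison, 3 were below in XY and 1 in Wnt4 null. Krt18, a keratin gene, was called lower in XY with the dye term, at -0.90 and -0.78. Gonadal somatic markers had medians of -0.037 and 0.097 over 3 genes, and red blood cell markers 0.33 and -0.022 over 3, with Nfe2 called higher in XY with the dye term. Ratios cannot show whether a marker was present at all, and the part that the makeup of the tissue has in the ratios of the 10 genes was not tested.

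**Figure D4:**
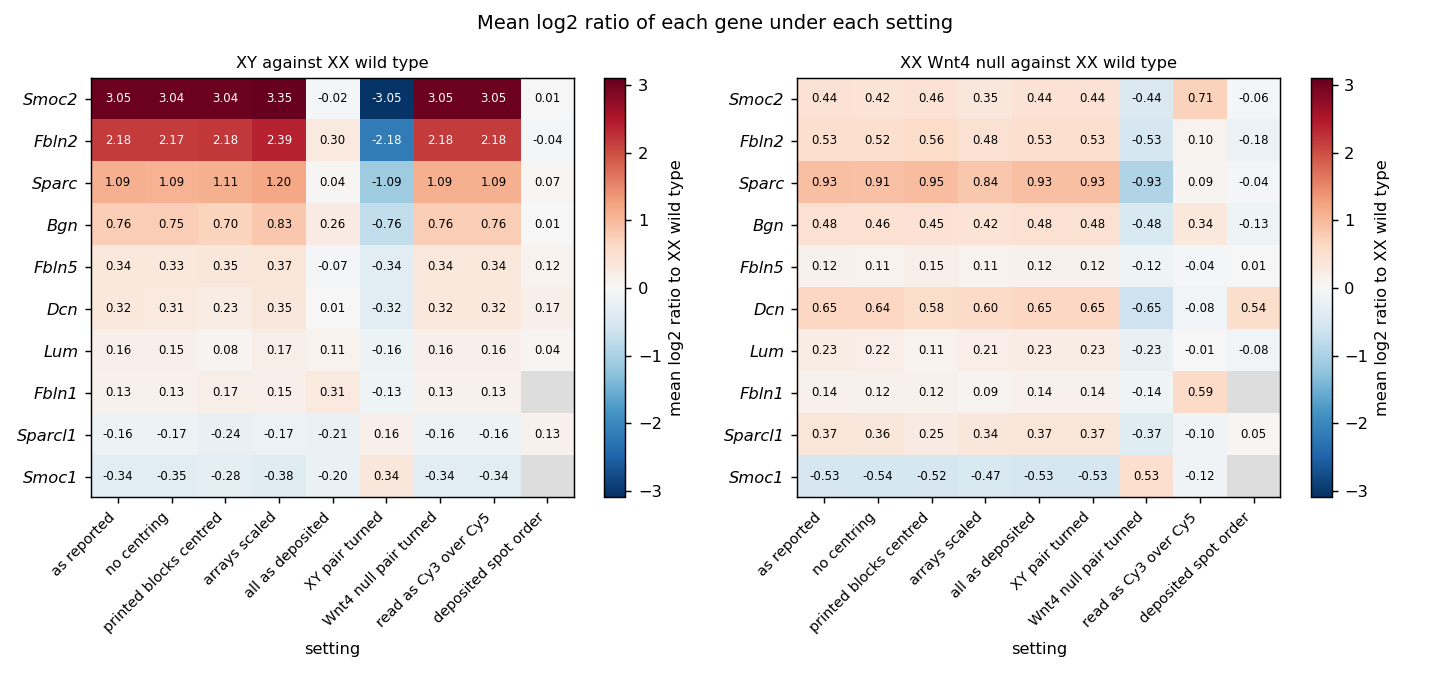
Mean log2 ratio to XX wild type (colour and printed number) of each of the 10 genes (rows) under each setting of centring, spread, direction and spot numbering (columns), for XY (left) and Wnt4 null (right); grey cells had no probe with 4 values. Centring and spread moved Smoc2 in XY between 3.04 and 3.35, whereas turning the XY pair changes every sign and reading the columns as Cy3 over Cy5 moves Sparc in Wnt4 null to 0.086.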

How the data were processed

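The authors deposited 1 log2 ratio of the dyes per spot and array, and spots left blank were treated as missing. The base was taken as 2 because of XY replicate 1, whose lowest value of -6.64, held by 6 spots, is the log2 of 0.01, and was assumed for the other arrays from their like spread. Neither normalization nor numerator is given in the sources used here. As deposited, the medians of XY replicates 1 and 2 were -0.0019 and -0.0172, and of Wnt4 null replicates 1 and 2 0.0084 and -0.0388. Direction is unsettled, as described above. No spot intensities were analysed here.

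Symbols came from the platform annotation, with 13908 of 14010 named spots matched by Entrez identifier to RefSeq (GRCm38.p6, used for names and promoters). XY replicate 1 was negated, each array was centred on its median, and 12264 of 17664 spots with values on all 4 arrays entered 1 fit (limma 3.58.1, R 4.3.3, lmFit and eBayes; a coefficient per comparison, no dye term). Tests were two-sided, with Benjamini-Hochberg adjustment over all probes tested and a threshold of 0.05. The dye term was an alternative. In the lists, a gene with 2 probes (Vcan and Nr2f2) entered as their mean and counted as called where either probe was. An exact sign-flip test on 2 arrays cannot go below p = 0.5, so none is given. XX wild type was never compared with itself, so its own spread is left out; with 2 arrays a comparison, precision is low.

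Named were all 10 genes, up to 4 genes of each related list past 1.5-fold on average with both arrays on one side of 0, the 3 nearest genes to Smoc2, Fbln2 and Sparc, and Wnt4, Eif2s3y and Xist. Efemp1, Vcan and other list members named besides these were chosen after their values were seen. The genes, lists and motifs were chosen with earlier results of these data known.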

Additional observations from a re-analysis of the deposited data

How the results depend on the processing

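With the XY pair turned as a whole, the XY means became -3.05 for Smoc2, -2.18 for Fbln2, -1.09 for Sparc, -2.94 for Ptgds, -2.65 for Tmem184a, -2.52 for Tesc, -2.11 for Pak3, -2.08 for Gstm1, -1.12 for Mfap4, -1.07 for Fabp3, -1.06 for Tagln2, -1.02 for Emilin1, -1.01 for Lsp1, -0.82 for Ccn4 and -0.80 for Ltbp4, and the median over the 10 genes -0.33. With the Wnt4 null pair turned, the Wnt4 null means became -0.93 for Sparc, -1.20 for Mfap4, -0.90 for Lsp1, -0.88 for Ccn4, -0.74 for Fabp3, -0.72 for Tagln2 and -0.63 for Gstm1, and the median -0.40. With all columns as deposited Smoc2 in XY was -0.024, the XY median 0.026 and 0 of the 10 genes passed 1.5-fold on both XY arrays. With all columns read as Cy3 over Cy5, Gstm1 and Tagln2 in Wnt4 null were -0.041 and -0.044, the Wnt4 null median was 0.038 and 0 of the 10 genes passed 1.5-fold there. With names in the deposited spot order 0 of the 8 genes with values passed 1.5-fold in either comparison, the medians were 0.055 and -0.048, and XY means were -0.041 for Fbln2, -0.041 for Pak3, -0.075 for Tesc, -0.11 for Ltbp4, -0.18 for Ccn4 and -0.32 for Fabp3; Wnt4 null means were -0.040 for Sparc, -0.0061 for Ccn4 and -0.17 for Fabp3.

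Centring in printed blocks and scaling of arrays moved the XY median to 0.29 and 0.36. With the dye term limma called 330 probes in XY and 24 in Wnt4 null, where none was called without it. Settings with the dye term added after the data were seen gave 414, 618 and 1078 calls in XY and 55, 150 and 138 in Wnt4 null with deposited, block and scaled centring, and 0, 7 and 68 in XY minus Wnt4 null. Smoc2, Fbln2, Sparc and Bgn were called in XY under each of these, and 0 of the 10 genes with all columns as deposited or read as Cy3 over Cy5. Leaving out 1 array in turn, without the dye term, gave 0 to 3 calls in XY, with Smoc2 among the 3 when either Wnt4 null array was left out (limma adjusted p = 0.0433), and medians over the 10 genes of 0.33 to 0.39 in XY and 0.2 to 0.6 in Wnt4 null. With 1 array left out, that comparison's lone array is assumed to vary like the other comparison, no dye term can be fitted, and 1.5-fold on both arrays has no value. Admitting spots with at least 1 value in each comparison kept all 10 genes at the same means and 0 calls. No paired analysis was possible because the labels carry no replicate numbers; dye orientation, which they do give, is the dye term. The cause of these changes was not tested.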

Other observations

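Ogn, the gene of the small leucine-rich proteoglycan osteoglycin and a relative of Dcn, Lum and Bgn, read -1.48 on XY replicate 1 and 1.74 on XY replicate 2, and in Wnt4 null -1.29 and 1.86, so that its replicates had opposite signs in each comparison while its means were 0.13 and 0.28. Ccn1, a matricellular relative of Ccn2, read -0.2 and 1.62 in XY and -0.24 and 1.99 in Wnt4 null, and the basement membrane proteoglycan gene Hspg2 read -0.35 and 0.98, and -0.7 and 1.39. Postn, the gene of periostin, read -0.71 and -0.052 in XY and -0.47 and 0.19 in Wnt4 null, where its arrays had opposite signs. Ogn, Ccn1, Hspg2 and Postn were picked after their values were seen, and what sets the replicates apart for Ogn, Ccn1 and Hspg2 was not tested.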
